A study of Mus musculus with 15 samples.

Results

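Collagen chains are the polypeptides that wind around each other into the rope-like helices of the extracellular matrix. The genes described here are the 44 whose symbol has the form Col, a type number, the letter a and a chain number, and that had a count above 0 in at least 1 library, out of 37876 genes with such a count. They were divided by textbook role into 11 fibrillar chains, 8 basement membrane chains and 25 other chains. Transcripts were measured by RNA sequencing in cultured lymphatic endothelial cells, the cells that line lymphatic vessels and the sinuses of lymph nodes. The cells were Pdpn+ CD31+ CD45- and came from popliteal, inguinal, cervical, brachial and axillary nodes of female C57Bl/6 mice, with the nodes pooled. All groups were grown in MEMα with 10% fetal bovine serum. The unstimulated group had no added factor, and the other groups had 10 or 100 ng/mL of murine VEGF-C, produced in HEK-293E cells, for 72 h. Each group had 5 libraries, lettered A to E. VEGF-C is a growth factor that acts on lymphatic endothelium through the receptor Flt4.

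Fibrillar collagens (types I, II, III, V, XI, XXIV and XXVII) assemble into the banded fibres of connective tissue and are made in quantity by fibroblasts. Type IV chains form the sheet-like network under endothelium, and types XV and XVIII are proteoglycan-bearing collagens attached to that sheet. Of the other chains, 9 belong to the fibril-associated group, which decorates fibril surfaces, and 6 to type VI, which builds beaded microfilaments. The remaining 10 are the anchoring fibril chain Col7a1, 3 short chains of types VIII and X, 4 membrane-spanning chains and the chains Col26a1 and Col28a1.

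The lymphatic label was checked first against a list of lymphatic endothelial markers, among them Cdh5, which blood endothelium also expresses. Over the 15 libraries, Flt4 lay between 31.8 and 113 RPKM, Cdh5 between 269 and 514, Lyve1 between 12.8 and 242 and Prox1 between 6.52 and 52.2. Mmrn1, also a lymphatic marker on that list, did not exceed 0.00263 RPKM in any library. Reln, another, did not exceed 0.0136 RPKM in unstimulated libraries and reached 1.33 at 100 ng/mL. Ptprc, a leukocyte marker that encodes CD45, did not exceed 0.201 RPKM in any library. Total estimated counts ran from 27784906 to 38590841 per library. On a principal component analysis, 100 ng/mL library B stood apart from its group on the first component, at 38.8 against 69.8 to 78.5. The lowest libraries of each group on the second component were E of the unstimulated group (-41.1), D of the 10 ng/mL group (-28.2) and B of the 100 ng/mL group (-45.1).

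Levels are given as RPKM, a read count divided by gene length and by the library total, rescaled between libraries by TMM factors. The length is the one listed per gene, for example 12184 bases for Col1a2 and 6615 for Col1a1. It may differ from that of the transcripts expressed, so shares, ratios and sums over chains depend on it. Col4a1 and Col4a2 were the most abundant chains in every group. Together they made up 67.4% ± 3.42 of the summed RPKM of all chains in unstimulated cells, 69.6% ± 3.04 at 10 ng/mL and 68.5% ± 4.63 at 100 ng/mL (SD, n = 5 each). These chains form the common type IV network, and their genes lie head to head on chromosome 8. In GENCODE M21 on GRCm38, Col4a1 (ENSMUSG00000031502) spans chr8:11198423-11312826 on the minus strand and Col4a2 (ENSMUSG00000031503) spans chr8:11312805-11449287 on the plus strand, so the annotated genes overlap by 22 bases. Their promoter windows are shown because these chains kept nearly the same ratio to each other in all libraries. RefSeq windows on GRCm38.p6 run from 250 bases before to 50 bases after an annotated start, and 35 of the 44 genes had at least 1 window, 38 in all. The windows are chr8:11312777-11313076 (minus strand) for Col4a1 and chr8:11312555-11312854 (plus strand) for Col4a2, and capitals mark the 78 bases they share, read on opposite strands.
Col4a1: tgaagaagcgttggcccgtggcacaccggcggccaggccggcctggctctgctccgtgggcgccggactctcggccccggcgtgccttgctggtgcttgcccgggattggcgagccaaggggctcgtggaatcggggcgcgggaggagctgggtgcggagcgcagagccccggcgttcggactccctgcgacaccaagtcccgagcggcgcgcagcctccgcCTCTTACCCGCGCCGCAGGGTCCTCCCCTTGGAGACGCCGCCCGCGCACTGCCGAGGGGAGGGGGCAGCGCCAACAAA
Col4a2: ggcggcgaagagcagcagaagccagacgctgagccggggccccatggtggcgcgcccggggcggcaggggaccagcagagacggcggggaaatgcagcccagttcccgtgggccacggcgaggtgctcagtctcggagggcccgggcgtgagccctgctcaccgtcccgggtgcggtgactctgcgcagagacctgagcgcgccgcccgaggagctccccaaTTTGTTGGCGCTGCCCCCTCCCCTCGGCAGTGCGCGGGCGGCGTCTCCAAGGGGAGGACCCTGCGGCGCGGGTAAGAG

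At 100 ng/mL the collagen profile differed widely from that of unstimulated cells. Of the 37 chains with enough counts to be tested, 24 were lower and 3 were higher at 100 ng/mL (edgeR quasi-likelihood test, adjusted p under 0.05), and 10 did not pass. Over all 17650 genes tested, 42.9% were called, 21.5% lower and 21.4% higher. The 24 include Col19a1 and Col6a4, which reached the filter on low counts in no 100 ng/mL library and were admitted by the groups where they were higher. Without these, 22 of 35 chains were lower, 3 higher and 10 not called. The median log2 fold change of the 37 chains was -1.42, and -1.40 without the same genes, against 0.008 for all genes tested. With a change of at least 2-fold also required, 20 chains were lower, Col19a1 and Col6a4 among them, and 2 higher. By that rule 8.29% of all genes were lower and 4.03% higher. The 5 libraries at 100 ng/mL all lay below the 5 unstimulated ones for 17 chains, Col19a1 and Col6a4 among them, and all above for 1, and over all genes these shares were 13.7% and 13.5%. In bulk RNA, fewer cells of a type and less RNA per cell cannot be told apart. Whether libraries A to E of a group came from separate cultures is not stated, so each p-value reflects the variation among these particular libraries, which may be technical.

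**Figure D1:**
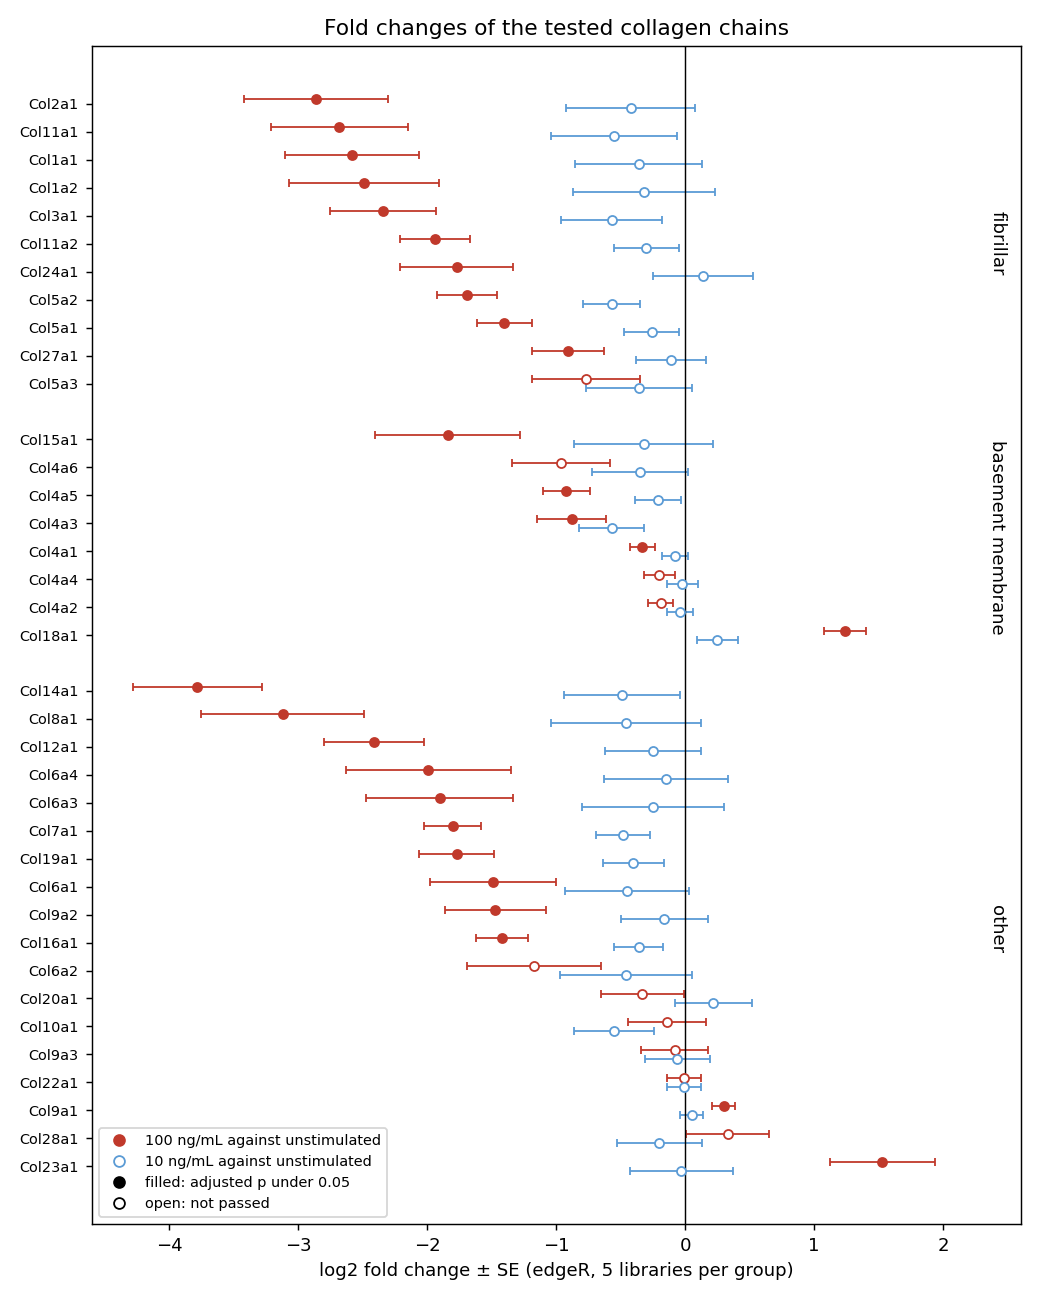
Log2 fold change ± SE (horizontal axis) of the 37 tested collagen chains by class, for 100 ng/mL (red) and 10 ng/mL (blue) against unstimulated cells. Filled symbols passed an adjusted p of 0.05. The filled symbols are the 24 lower and 3 higher chains at 100 ng/mL, and all symbols for 10 ng/mL are open.

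The fibrillar class fell most uniformly: 10 of its 11 chains were lower at 100 ng/mL and none was higher, with a median log2 fold change of -1.94. The all-gene shares were 21.5% lower and 21.4% higher. Col1a1 and Col1a2, the paired chains of type I collagen, led by size among the abundant ones. Col1a1 had 67.7, 25.6, 72.0, 19.5 and 38.8 RPKM in unstimulated libraries A to E, 23.8, 61.1, 14.4, 26.9 and 48.4 at 10 ng/mL, and 2.84, 13.8, 5.30, 4.41 and 11.2 at 100 ng/mL. All 5 libraries at 100 ng/mL lay below the lowest unstimulated one, and the log2 fold change was -2.58 ± 0.52 (SE), 5.97-fold lower (adjusted p = 0.00102). The 10 ng/mL libraries spanned most of the unstimulated range.

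Col1a2 had 31.4, 10.8, 29.1, 5.79 and 15.5 RPKM in unstimulated libraries, 10.304, 25.5, 4.72, 11.3 and 22.6 at 10 ng/mL, and 0.992, 5.99, 2.74, 2.00 and 4.70 at 100 ng/mL. Library B at 100 ng/mL reached just above unstimulated D, so the groups overlapped, and the log2 fold change was -2.49 ± 0.58 (adjusted p = 0.00284). The RPKM ratio of Col1a1 to Col1a2 stayed between 1.93 and 3.37 over all 15 libraries. The Col1a2 window, chr6:4505368-4505667 on the plus strand, is shown as the window of a type I chain, with capitals marking the TATA box TATAAA, the CAAT box CCAAT and the GC box GGGCGG on either strand. None of these 3 motifs contains another, and a match is a description of the letters only.
Col1a2: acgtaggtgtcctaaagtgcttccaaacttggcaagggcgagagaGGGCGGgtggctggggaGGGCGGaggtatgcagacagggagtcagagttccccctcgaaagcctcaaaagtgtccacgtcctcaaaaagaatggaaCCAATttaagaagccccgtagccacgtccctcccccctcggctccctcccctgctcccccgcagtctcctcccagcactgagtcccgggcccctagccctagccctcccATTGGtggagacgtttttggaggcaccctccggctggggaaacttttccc

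The 4 matches in that window are of CCAAT and GGGCGG. Among the 38 collagen windows, 60.5% held GGGCGG, 34.2% CCAAT and 13.2% TATAAA. Over all 32851 windows of the same length the shares were 35.7%, 37.4% and 13.6%.

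Type V chains join type I in mixed fibrils. Col5a2 was the fibrillar chain with the most counts, at 32.7, 28.5, 34.6, 46.3 and 53.9 RPKM in unstimulated libraries, 18.5, 26.4, 28.4, 35.8 and 22.7 at 10 ng/mL, and 11.0, 18.8, 10.38, 9.16 and 11.6 at 100 ng/mL. Its log2 fold change at 100 ng/mL was -1.69 ± 0.23 (adjusted p = 3.25e-05), with no overlap between these groups. Col5a1 had 23.2, 18.5, 26.8, 24.2 and 24.9 RPKM in unstimulated libraries, 15.3, 23.9, 19.8, 20.5 and 18.9 at 10 ng/mL, and 9.71, 14.3, 5.03, 8.28 and 7.32 at 100 ng/mL (log2 -1.40 ± 0.21, adjusted p = 9.76e-05). Both chains were lower in every 100 ng/mL library than in any unstimulated one. The third chain of the type, Col5a3, averaged 0.743 ± 0.350 RPKM at 100 ng/mL and 1.27 ± 0.569 in unstimulated cells (SD, n = 5 each) and did not pass, with a log2 fold change of -0.77 and a 95% interval of -1.66 to 0.12 (adjusted p = 0.156).

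Col2a1 and Col11a1, best known from cartilage, were expressed at low levels and had the largest fitted falls of the class. Col2a1, the main cartilage collagen, had 0.110, 0.606, 0.1001, 0.0907 and 0.150 RPKM at 100 ng/mL and 1.75, 0.986, 1.23, 0.722 and 2.93 in unstimulated libraries, 7.25-fold lower (log2 -2.86 ± 0.56, adjusted p = 0.000831). Col11a1, whose product nucleates fibrils with type II collagen, had 0.137, 0.495, 0.105, 0.0864 and 0.0888 RPKM at 100 ng/mL and 0.718, 0.735, 0.629, 1.76 and 1.99 in unstimulated libraries (log2 -2.68 ± 0.53, adjusted p = 0.00091). In both genes 100 ng/mL library B was the highest of its group by a wide margin. Without it the log2 fold changes were -3.75 for Col2a1 and -3.48 for Col11a1.

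The other fibrillar chains that passed were Col3a1, Col11a2, Col24a1 and Col27a1. Col3a1, the chain of type III collagen, which accompanies type I in soft tissues, averaged 1.11 ± 0.606 RPKM at 100 ng/mL and 5.63 ± 2.02 in unstimulated cells (log2 -2.34 ± 0.41, adjusted p = 0.000328). Col11a2 averaged 0.112 ± 0.0339 RPKM at 100 ng/mL and 0.436 ± 0.141 in unstimulated cells (log2 -1.94, adjusted p = 4.42e-05). Col24a1 averaged 0.0549 ± 0.0429 RPKM at 100 ng/mL and 0.184 ± 0.0882 in unstimulated cells (log2 -1.77, adjusted p = 0.00437), and without 100 ng/mL library B its log2 fold change was -2.37. Col27a1 averaged 0.155 ± 0.0505 RPKM at 100 ng/mL and 0.293 ± 0.0993 in unstimulated cells (log2 -0.91, adjusted p = 0.0152). Col3a1 and Col11a2 did not overlap between these groups, and Col24a1 and Col27a1 did.

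**Figure D2:**
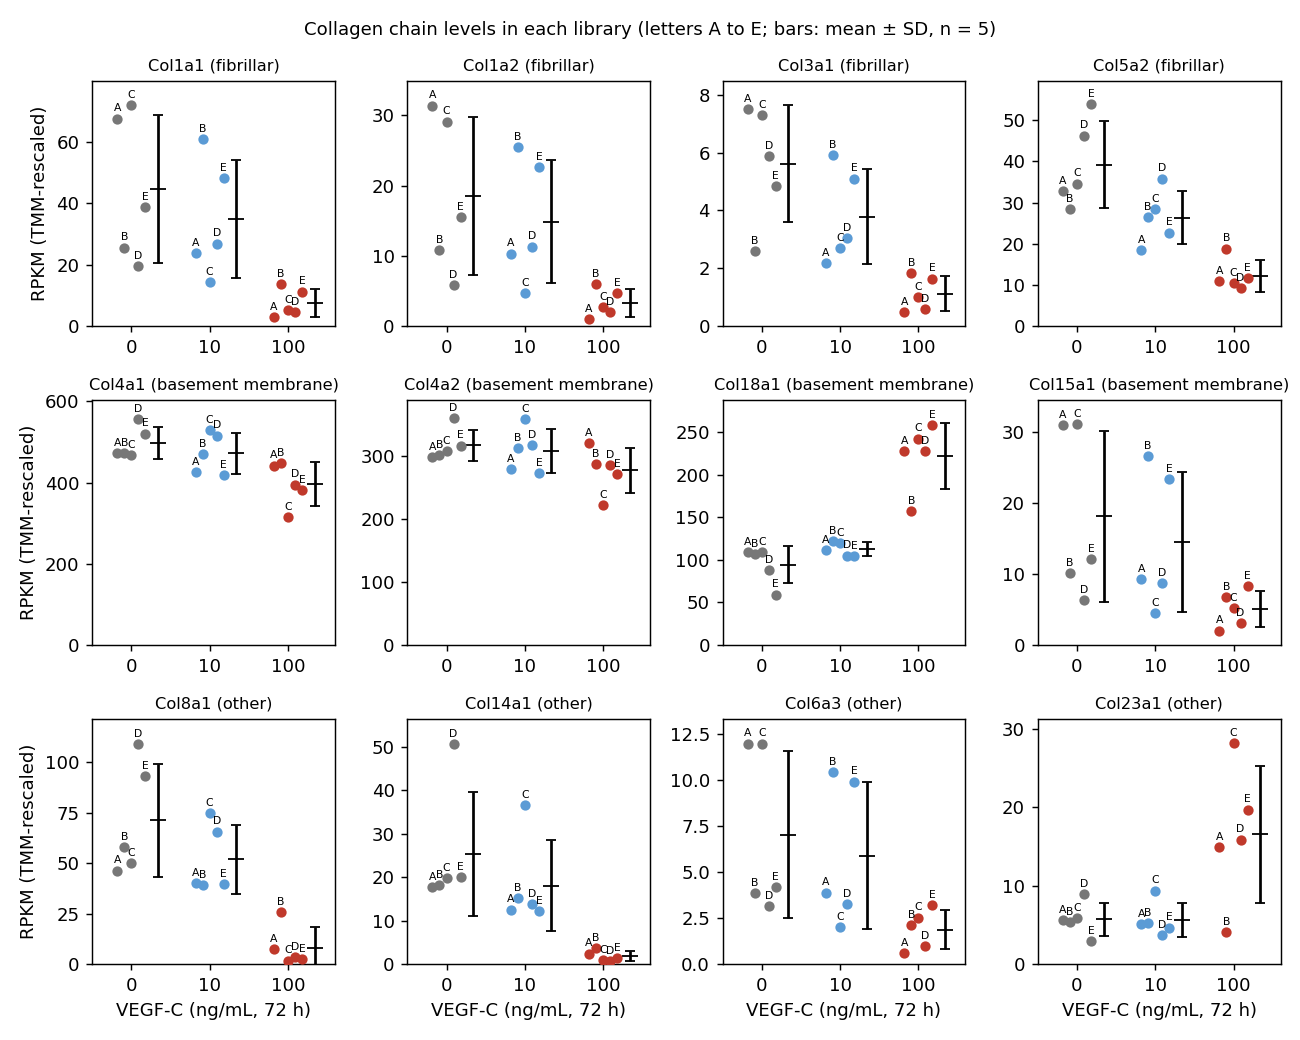
RPKM (vertical axis, TMM-rescaled, from 0) of 12 collagen chains at 0, 10 and 100 ng/mL of VEGF-C, with 1 lettered point per library and the mean ± SD of 5 libraries. Col1a1, Col1a2, Col3a1, Col5a2, Col8a1 and Col14a1 are lowest at 100 ng/mL, Col4a1 lies at 316 to 557 and Col4a2 at 222 to 359 RPKM over all libraries, and Col18a1 lies at 157 to 258 RPKM against 59.1 to 109 in unstimulated cells.

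The basement membrane class divided. Among its 8 chains 4 were lower at 100 ng/mL, 1 was higher and 3 did not pass, with a median log2 fold change of -0.60. Over all genes tested, 21.5% were lower and 21.4% higher. Col18a1, whose C-terminal fragment is endostatin, was the chain that rose. It had 109, 107, 109, 87.9 and 59.1 RPKM in unstimulated libraries A to E, 111, 122, 119.9, 105 and 104 at 10 ng/mL, and 227, 157, 242, 227 and 258 at 100 ng/mL. Every 100 ng/mL library exceeded all libraries of both other groups, the only chain for which this held among the 37 tested, and the rise over unstimulated cells was 2.36-fold (log2 1.24 ± 0.16, adjusted p = 2.19e-05). The rise over 10 ng/mL was 0.98 ± 0.16 on the log2 scale (adjusted p = 0.000189). Its share of the summed RPKM of all chains was 22.9% ± 4.75 at 100 ng/mL and 7.87% ± 2.04 in unstimulated cells (SD, n = 5 each).

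Col18a1 (ENSMUSG00000001435, chr10:77052178-77166548, minus strand) has annotated starts far apart within the gene. The deposited values are per gene and do not tell transcripts from these starts apart. Both RefSeq windows are shown because Col18a1 is the abundant chain that rose, with capitals marking the same 3 motifs. The window chr10:77166481-77166780, at the upstream end, held 4 matches, all of CCAAT or GGGCGG, and the internal window chr10:77113656-77113955 held 0.
Col18a1 upstream: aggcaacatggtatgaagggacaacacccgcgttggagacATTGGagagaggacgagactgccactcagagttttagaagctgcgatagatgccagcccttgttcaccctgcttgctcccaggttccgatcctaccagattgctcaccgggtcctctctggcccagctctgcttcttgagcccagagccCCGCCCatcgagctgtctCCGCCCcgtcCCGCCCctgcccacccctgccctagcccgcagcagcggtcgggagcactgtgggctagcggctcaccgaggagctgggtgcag
Col18a1 internal: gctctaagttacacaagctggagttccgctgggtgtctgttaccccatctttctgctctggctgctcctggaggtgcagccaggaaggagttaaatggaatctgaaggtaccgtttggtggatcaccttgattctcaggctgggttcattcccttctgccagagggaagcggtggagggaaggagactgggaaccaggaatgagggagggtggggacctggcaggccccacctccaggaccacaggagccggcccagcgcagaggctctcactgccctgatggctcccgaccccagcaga

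Col15a1, the closest relative of Col18a1, moved the other way. It had 31.0, 10.11, 31.1, 6.31 and 12.1 RPKM in unstimulated libraries, 9.30, 26.6, 4.49, 8.73 and 23.4 at 10 ng/mL, and 2.03, 6.77, 5.17, 3.12 and 8.28 at 100 ng/mL. The 100 ng/mL and unstimulated groups overlapped, and the log2 fold change was -1.84 ± 0.56 (adjusted p = 0.0158). The RPKM ratio of Col18a1 to Col15a1 ran from 23.2 to 112 over the 100 ng/mL libraries and from 3.51 to 13.9 over the unstimulated ones.

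Col4a1 had 472, 473, 467, 557 and 521 RPKM in unstimulated libraries, 426, 470.4, 529.9, 516 and 419 at 10 ng/mL, and 442, 449, 316, 395 and 381 at 100 ng/mL. Its fall was small, 1.26-fold (log2 -0.33 ± 0.10, adjusted p = 0.019), although the 100 ng/mL and unstimulated libraries did not overlap. The call did not hold without unstimulated D (log2 -0.28, adjusted p = 0.0521). Col4a2 had 298, 300.5, 307, 359 and 316 RPKM in unstimulated libraries, 279, 312, 358, 317 and 272 at 10 ng/mL, and 320.3, 286, 222, 285 and 271 at 100 ng/mL. It did not pass, with a log2 fold change of -0.19 and a 95% interval of -0.41 to 0.02 (adjusted p = 0.141). The RPKM ratio of Col4a1 to Col4a2 was 1.43 ± 0.0782 at 100 ng/mL and 1.58 ± 0.0488 in unstimulated cells (SD, n = 5 each), and its coefficient of variation over all 15 libraries was 5.57%.

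The remaining type IV chains, which form the rarer networks of kidney, lung and other tissues, were far less abundant. Col4a5 had 7.75, 7.83, 8.57, 5.57 and 7.22 RPKM at 100 ng/mL and 11.9, 12.0, 11.5, 20.2 and 14.1 in unstimulated libraries, with no overlap (log2 -0.92 ± 0.18, adjusted p = 0.000768). Col4a6, its head-to-head neighbour on the X chromosome at a distance of 1308 bases, averaged 0.171 ± 0.0787 RPKM at 100 ng/mL and 0.332 ± 0.151 in unstimulated cells and narrowly missed the threshold (log2 -0.96, 95% interval -1.77 to -0.15, adjusted p = 0.0525). Col4a3 passed with a log2 fold change of -0.88 (adjusted p = 0.0157) at no more than 0.0538 RPKM in any library, and its exons overlap those of C430014B12Rik on the opposite strand. Col4a4, whose start lies 71 bases from that of Col4a3, averaged 0.354 ± 0.0426 RPKM at 100 ng/mL and 0.408 ± 0.0670 in unstimulated cells and did not pass (95% interval -0.46 to 0.05, adjusted p = 0.191).

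Summed over a class, the RPKM of fibrillar chains was 136 ± 37.4 in unstimulated cells, 103 ± 32.0 at 10 ng/mL and 34.4 ± 13.7 at 100 ng/mL (SD, n = 5 each). The sum of basement membrane chains was 941 ± 51.4 in unstimulated cells, 919 ± 85.8 at 10 ng/mL and 909 ± 73.9 at 100 ng/mL. That of the other chains was 130.1 ± 34.4 in unstimulated cells, 97.3 ± 21.8 at 10 ng/mL and 36.7 ± 7.88 at 100 ng/mL. Basement membrane chains thereby made up 78.0% ± 2.81 of the sum of all chains in unstimulated cells, 82.1% ± 2.42 at 10 ng/mL and 92.7% ± 1.99 at 100 ng/mL. The lowest 100 ng/mL library, at 89.9%, lay above the highest unstimulated library, at 82.9%. Within the basement membrane sum, the higher Col18a1 and the lower Col4a1, Col4a2, Col4a5 and Col15a1 levels stood against each other. These sums are descriptions and were not tested.

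**Figure D3:**
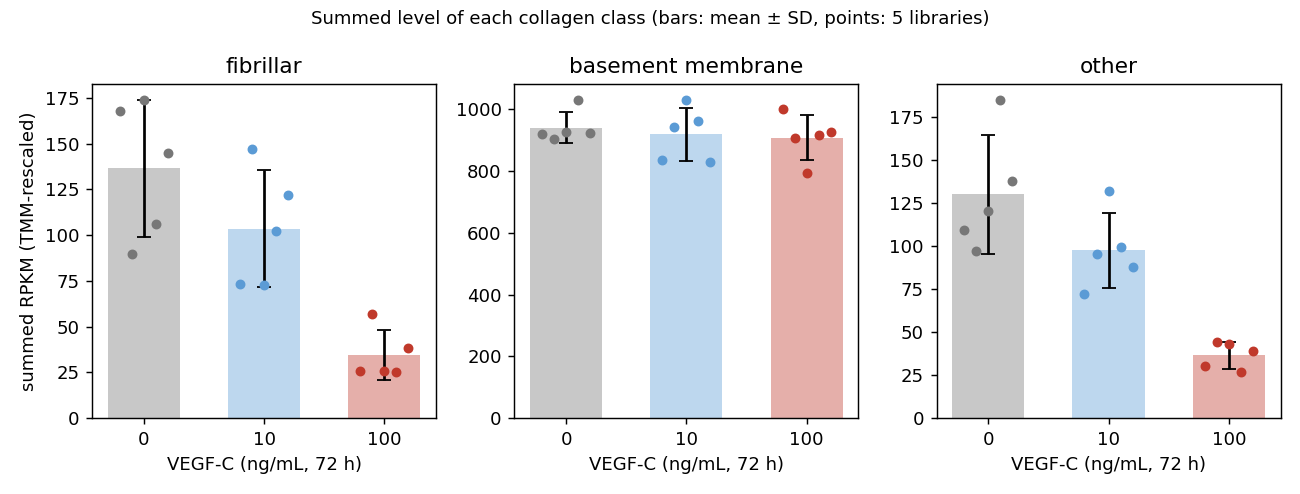
Summed RPKM (vertical axis, TMM-rescaled, from 0) of fibrillar, basement membrane and other collagen chains at 0, 10 and 100 ng/mL of VEGF-C. Bars are means ± SD of 5 libraries and points are libraries. The fibrillar and other sums are lowest at 100 ng/mL, at 34.4 and 36.7, and the basement membrane sum differs by less than the spread between libraries.

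Of the 25 other chains, 18 were tested, and 10 of these were lower, 2 higher and 6 not called at 100 ng/mL, with a median log2 fold change of -1.45. Without Col19a1 and Col6a4 the counts were 8 lower, 2 higher and 6 not called of 16. Over all genes tested, 21.5% were lower and 21.4% higher. Col8a1, a short chain that forms hexagonal lattices and is known from vessel walls and the membrane under corneal endothelium, was the most abundant in unstimulated cells. It had 46.4, 57.9, 50.3, 109 and 93.3 RPKM in unstimulated libraries, 40.3, 39.4, 75.1, 65.7 and 39.7 at 10 ng/mL, and 7.45, 25.7, 1.81, 3.64 and 2.39 at 100 ng/mL. Library B was again the highest at 100 ng/mL. The fall was 8.72-fold (log2 -3.12 ± 0.63, adjusted p = 0.000998), and without that library the log2 fold change was -4.22.

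Col14a1 and Col12a1 encode fibril-associated collagens that bind the surface of type I fibrils. Col14a1 had 17.7, 18.3, 19.9, 50.7 and 20.1 RPKM in unstimulated libraries, 12.6, 15.2, 36.7, 13.8 and 12.2 at 10 ng/mL, and 2.46, 3.66, 0.988, 0.757 and 1.35 at 100 ng/mL. Its fall of 13.7-fold (log2 -3.78 ± 0.50, adjusted p = 2.64e-05) was the largest fitted among the 37 chains. Col12a1 had 0.166, 0.775, 0.355, 0.149 and 0.411 RPKM at 100 ng/mL and 2.10, 1.36, 2.61, 1.42 and 2.37 in unstimulated libraries, without overlap (log2 -2.41 ± 0.39, adjusted p = 0.000178).

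Over the fibril-associated group as a whole, 5 of 9 chains were lower, 1 was higher and 3 did not pass. Without Col19a1 the lower ones were 4 of 8, where 21.5% of all genes were lower and 21.4% higher. Col16a1 averaged 0.997 ± 0.311 RPKM at 100 ng/mL and 2.67 ± 0.450 in unstimulated cells (log2 -1.42, adjusted p = 3.81e-05). Col9a2 passed (log2 -1.47, adjusted p = 0.00723) at a mean count under 1 CPM, the count scaled to the library total. Col19a1, with a fitted log2 fold change of -1.77, is given as a description, since all its 100 ng/mL libraries lay under the filter level. Col9a1 averaged 0.601 ± 0.0521 RPKM at 100 ng/mL and 0.490 ± 0.0330 in unstimulated cells, a rise of 1.23-fold (adjusted p = 0.0197) that was not called without 100 ng/mL library E (adjusted p = 0.0532). Col20a1, Col22a1 and Col9a3 did not pass, with adjusted p-values of 0.438, 0.973 and 0.836. Col22a1 had the narrowest interval of these 3, from -0.28 to 0.27 on the log2 scale.

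Type VI chains link cells to the surrounding matrix, and of Col6a1, Col6a2 and Col6a3 the first and the last were lower. Col6a3 had 12.0, 3.86, 12.0, 3.15 and 4.19 RPKM in unstimulated libraries, 3.90, 10.46, 2.01, 3.25 and 9.94 at 10 ng/mL, and 0.596, 2.12, 2.54, 0.976 and 3.20 at 100 ng/mL (log2 -1.90 ± 0.57 for 100 ng/mL against unstimulated, adjusted p = 0.0149). Library E at 100 ng/mL exceeded the lowest unstimulated library. Col6a1 averaged 3.91 ± 2.18 RPKM at 100 ng/mL and 11.0 ± 6.10 in unstimulated cells (log2 -1.49, adjusted p = 0.0242). Its call was lost without unstimulated A, unstimulated C, 100 ng/mL A or 100 ng/mL D, with adjusted p-values of 0.0588, 0.0703, 0.0568 and 0.0596. Col6a2 averaged 1.43 ± 0.831 RPKM at 100 ng/mL and 3.23 ± 1.92 in unstimulated cells and did not pass (log2 -1.17, 95% interval -2.27 to -0.07, adjusted p = 0.0799), but was called without 100 ng/mL E (log2 -1.51, adjusted p = 0.0399). Col6a4, at no more than 0.0343 RPKM, had a fitted log2 fold change of -1.99, a description as for Col19a1.

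Col7a1, the chain of the anchoring fibrils below epithelia, averaged 0.128 ± 0.0418 RPKM at 100 ng/mL and 0.447 ± 0.101 in unstimulated cells, without overlap (log2 -1.80 ± 0.22, adjusted p = 1.48e-05). Col10a1, the short chain of hypertrophic cartilage, and Col28a1 did not pass (adjusted p = 0.744 and 0.433).

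Of the 4 membrane-spanning collagens 1 was tested, Col23a1, and it was higher. Col23a1 had 5.64, 5.35, 5.87, 8.91 and 2.96 RPKM in unstimulated libraries, 5.09, 5.27, 9.39, 3.67 and 4.68 at 10 ng/mL, and 14.9, 4.13, 28.2, 15.9 and 19.7 at 100 ng/mL. The log2 fold change against unstimulated cells was 1.53 ± 0.41 (adjusted p = 0.00677), and 4 of 5 libraries at 100 ng/mL exceeded every unstimulated library, with library B inside the unstimulated range. Col13a1, another membrane-spanning chain, fell short of the count filter, which library C at 100 ng/mL did not reach. It had 36, 19, 6, 52 and 51 counts at 100 ng/mL and 1, 2, 3, 1 and 1 counts in unstimulated libraries. In the fit with no filter Col13a1 was higher at 100 ng/mL by 4.39 ± 0.62 on the log2 scale (adjusted p = 5.17e-05). Col13a1 lay outside the main test and was named after its values were seen, so this is given as a description. The other 2 of that type, Col17a1 and Col25a1, had summed counts of 27 and 23 at 100 ng/mL against 36 and 23 in unstimulated cells.

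The 7 chains not tested were Col13a1, Col17a1, Col25a1, Col26a1, Col6a5, Col6a6 and Col8a2. Col8a2, the partner of Col8a1 in type VIII collagen, had a summed count of 7 at 100 ng/mL and 47 in unstimulated cells. With no filter its log2 fold change was -2.51 (adjusted p = 0.00137), a description as for Col13a1. Col26a1, Col6a5 and Col6a6 had summed counts of 3, 7 and 1 at 100 ng/mL and 11, 14 and 0 in unstimulated cells. Of the 37 tested chains, 30 reached the filter level of 0.30 CPM in every library, and Col19a1 and Col6a4 reached it in no 100 ng/mL library. The counts and medians above therefore describe the tested chains, not all 44.

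At 10 ng/mL no chain was called against unstimulated cells, and neither was any of the 17650 genes by edgeR (0.00%). At an unadjusted p under 0.05 there were 3 chains, all lower, against 844 genes or 4.78% of all. The DESeq2 Wald test and limma-voom also called 0 chains. The smallest unadjusted p-values were those of Col5a2 (0.0219, log2 -0.57), Col7a1 (0.0381, log2 -0.48), Col4a3 (0.04, log2 -0.57), Col16a1 (0.0798, log2 -0.36) and Col10a1 (0.0972, log2 -0.55), all with an adjusted p of 0.97. Fitted values lay below 0 for 33 of the 37 chains, with a median of -0.30 against -0.003 over all genes. The share of all genes below 0 was not counted. The chains were read in the same libraries, so these values are not independent of each other. For Col1a1 the 95% interval of the log2 fold change was -1.41 to 0.69, for Col14a1 -1.44 to 0.47 and for Col4a1 -0.30 to 0.14, so falls of the size seen at 100 ng/mL lay outside these intervals. For Col18a1 the interval was -0.08 to 0.59, below its fitted rise at 100 ng/mL. The fit took all libraries as unpaired. If libraries of these groups share a source, as a match given in the last section hints, the intervals may be too wide. This was not tested, so the lack of calls does not show that 10 ng/mL had no effect.

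Set directly against 10 ng/mL, 100 ng/mL had 21 chains lower, 2 higher and 14 not called, where 40.6% of all genes were called, 20.6% lower and 19.9% higher. The 21 include Col19a1 and Col6a4, which reached the count filter in no 100 ng/mL library and were admitted by the groups where they were higher. The higher ones were Col18a1 and Col23a1 (log2 1.56, adjusted p = 0.00662). The same 10 of 11 fibrillar chains were lower, among them Col1a1 (log2 -2.22, adjusted p = 0.00308) and Col5a2 (log2 -1.11, adjusted p = 0.00114). Comparisons that use the same libraries are not independent of each other.

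Within a group, sets of chains were high in the same libraries. Among the 26 chains given full values, unstimulated A and C were the highest libraries for 10, which were Col1a1, Col1a2, Col3a1, Col5a3, Col6a1, Col6a2, Col6a3, Col15a1, Col16a1 and Col18a1. Unstimulated D and E were the highest for 7 others, which were Col4a1, Col4a2, Col4a5, Col5a2, Col8a1, Col11a1 and Col14a1. At 10 ng/mL, libraries B and E led for 10 chains, and these were the same genes as the first set with Col12a1 in place of Col18a1. Libraries C and D led for 7, which were those of the second set with Col27a1 in place of Col14a1. Thus Col1a1 ran 3.69-fold from lowest to highest library in unstimulated cells, while Col4a1 ran 1.19-fold. This is a description of rank order in 5 libraries. Over all genes tested, 10 ng/mL libraries B, E, C and D also correlated best with unstimulated C, A, D and E. Whether the shared order is particular to collagen chains or to the markers below was not tested. The share of all genes with these highest libraries was not counted.

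Of 16 tested markers of fibroblasts and mural cells, which are the usual main sources of fibrillar collagen, 7 had both the unstimulated libraries A and C and the 10 ng/mL libraries B and E as their highest, as Col1a1 did. They were Pdgfra, Pdgfrb, Dcn, Postn, Mfap5, Cspg4 and Notch3. The other 9 had another order, among them Thy1, whose lowest libraries were unstimulated C at 278 RPKM and 10 ng/mL B at 256. Pdgfrb had 9.08, 3.88, 9.70, 2.91 and 4.76 RPKM in unstimulated libraries A to E, 3.52, 7.90, 2.14, 3.77 and 6.87 at 10 ng/mL, and 0.593, 2.44, 1.70, 1.19 and 2.69 at 100 ng/mL. Of the 18 genes on the list 16 were tested, and 12 were lower at 100 ng/mL, 0 higher and 4 not called, with a median log2 fold change of -1.66, where 42.9% of all genes were called. None was called at 10 ng/mL. The list's summed RPKM was 675 to 821 in unstimulated libraries, 581 to 836 at 10 ng/mL and 227 to 303 at 100 ng/mL. Most of it was Thy1, which averaged 225 RPKM at 100 ng/mL and 325 in unstimulated cells (log2 -0.53, adjusted p = 0.000174), and Dcn. Without Thy1 and Dcn the sum was 182.6 to 341.9 RPKM in unstimulated libraries, 132.7 to 190.5 at 10 ng/mL and 12.1 to 46.2 at 100 ng/mL. No gene of the list was at 0 in every library, but Lum did not exceed 0.0423 RPKM and Dpt 0.0619 in any. Acta2 and Tagln, smooth muscle cytoskeleton genes, averaged 5.55 ± 4.96 and 7.74 ± 7.65 RPKM at 100 ng/mL, against 88.8 ± 19.0 and 139 ± 41.6 in unstimulated cells (SD, n = 5 each). The part of these cells in the collagen results was not tested.

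For the other marker lists the same all-gene shares apply, 21.5% lower and 21.4% higher. Of 9 tested markers on the lymphatic endothelial list, 7 were higher at 100 ng/mL and none lower. The 7 include Cdh5 and Pecam1, which blood endothelium also expresses. The 2 not called were Prox1 (adjusted p = 0.0589) and Pdpn (adjusted p = 0.453). Reln, among those higher, did not exceed 0.0136 RPKM in any unstimulated library. Its counts outside the 100 ng/mL group were not checked against the filter. The list's summed RPKM was 526 to 577 in unstimulated libraries, 559 to 634 at 10 ng/mL and 789.8 to 1111 at 100 ng/mL. Most of it was Cdh5, averaging 287 RPKM in unstimulated cells and 458 at 100 ng/mL, and Pecam1, averaging 135 and 153. Leukocyte markers summed to 8.45 to 14.2 RPKM at 100 ng/mL and 17.0 to 49.4 in unstimulated cells, with 6 of 8 lower. Epithelial markers summed to 8.91 to 19.5 RPKM at 100 ng/mL and 28.8 to 48.5 in unstimulated cells, with 5 of 7 lower and 1 higher. Blood endothelial markers summed to 618 to 725 RPKM at 100 ng/mL and 641 to 872 in unstimulated cells, ranges that overlap, and 5 of 10 were lower and 3 higher. Aplnr, among those higher, did not exceed 0.0430 RPKM in any unstimulated or 10 ng/mL library, and its counts there were not checked against the filter. The part of these marker lists in the collagen results was not tested.

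**Figure D4:**
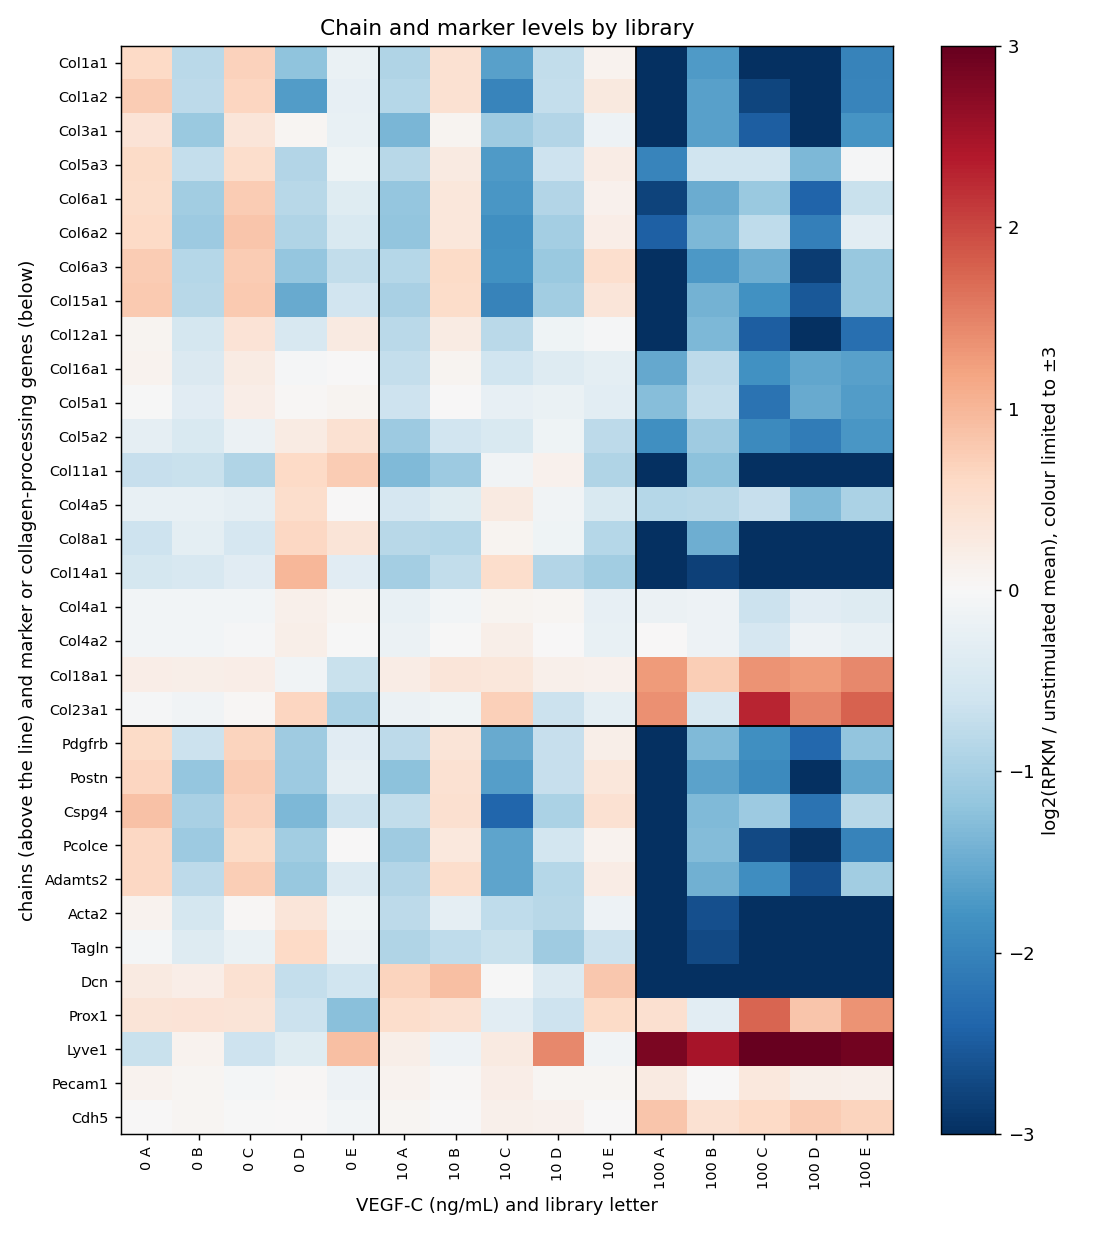
Log2 ratio of RPKM to the unstimulated mean (colour, limited to ±3) for 20 collagen chains above the line and 12 marker or collagen-processing genes below it, in 15 libraries ordered by VEGF-C dose. Unstimulated A and C and 10 ng/mL B and E share higher levels of Col1a1, Col1a2, Col6a3, Pdgfrb and Pcolce, and the 100 ng/mL columns are lower for most chains.

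Genes that act on collagen were lower in part. Collagen chains are hydroxylated, glycosylated and folded in the endoplasmic reticulum, and 8 of 18 genes for these steps were lower at 100 ng/mL, 3 higher and 7 not called, with a median log2 fold change of -0.31, where 21.5% of all genes were lower and 21.4% higher. The smallest p-values were those of Colgalt2, P3h2, P4ha1 and P4ha2. Colgalt2, a galactosyltransferase for hydroxylysine, rose at very low levels, to 0.211 ± 0.0587 RPKM at 100 ng/mL, against 0.0171 ± 0.00809 in unstimulated cells (log2 3.70, adjusted p = 1.44e-07). It did not exceed 0.0265 RPKM in any unstimulated or 10 ng/mL library. Whether it reached the count filter outside the 100 ng/mL group was not checked, so its fit is given as a description. The prolyl hydroxylase subunit P4ha1 fell to 18.2 ± 4.76 RPKM at 100 ng/mL, against 37.0 ± 3.12 in unstimulated cells (log2 -1.02, adjusted p = 1.87e-05), and P4ha2 had a log2 fold change of -0.73. P3h2, a prolyl 3-hydroxylase that acts on type IV collagen, fell to 0.839 ± 0.249 RPKM at 100 ng/mL, against 3.76 ± 0.458 in unstimulated cells (log2 -2.16, adjusted p = 5.29e-07).

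Among 15 tested genes for secretion, trimming and crosslinking, 9 were lower, 2 higher and 4 not called, with a median of -0.93. The 9 include Adamts3, which did not exceed 0.0160 RPKM at 100 ng/mL, and whether it reached the count filter there was not checked. The all-gene shares were 21.5% lower and 21.4% higher. The leading genes by p were Lox, Adamts14, Loxl3 and Bmp1. Lox, which crosslinks fibrils outside the cell, fell to 0.859 ± 0.893 RPKM at 100 ng/mL, against 11.3 ± 3.11 in unstimulated cells (log2 -3.72 ± 0.48, adjusted p = 2.03e-05). Adamts14, which removes the N-terminal propeptide of fibrillar collagens, had a log2 fold change of -2.18, and the crosslinking enzyme gene Loxl3 of -0.89. Bmp1, which removes the C-terminal propeptide, rose to 41.5 ± 6.06 RPKM at 100 ng/mL, against 25.0 ± 3.69 in unstimulated cells (log2 0.73 ± 0.12, adjusted p = 0.000203).

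Of 12 genes for collagen receptors and uptake, 6 were lower, 3 higher and 3 not called, with a median of -0.58. Here and for the proteoglycan genes below, the all-gene shares were 21.5% lower and 21.4% higher. The number of receptor and uptake genes that were higher is near that share. Lair1 (log2 -1.32), an inhibitory receptor of leukocytes, Itga1 (log2 -1.18), an integrin chain that binds type IV collagen, and the kinase receptor gene Ddr1 (log2 -1.62) were lower. Antxr1, an anthrax toxin receptor that binds collagen, was higher (log2 1.21 ± 0.15). Of 10 proteoglycan genes of collagen fibrils 6 were tested, 5 of them lower and 1 not called, with a median of -2.33. Dcn, which encodes decorin and is also on the fibroblast list, had 4.91, 15.7, 8.01, 4.18 and 6.34 RPKM at 100 ng/mL and 232, 221, 264, 118 and 128 in unstimulated libraries (log2 -4.62 ± 0.42, adjusted p = 6.87e-07). Prelp, Bgn and Fmod had log2 fold changes of -2.76, -2.58 and -2.07. Fmod did not exceed 0.0410 RPKM at 100 ng/mL, and whether it reached the count filter there was not checked. No gene on these 4 lists was called at 10 ng/mL.

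**Figure D5:**
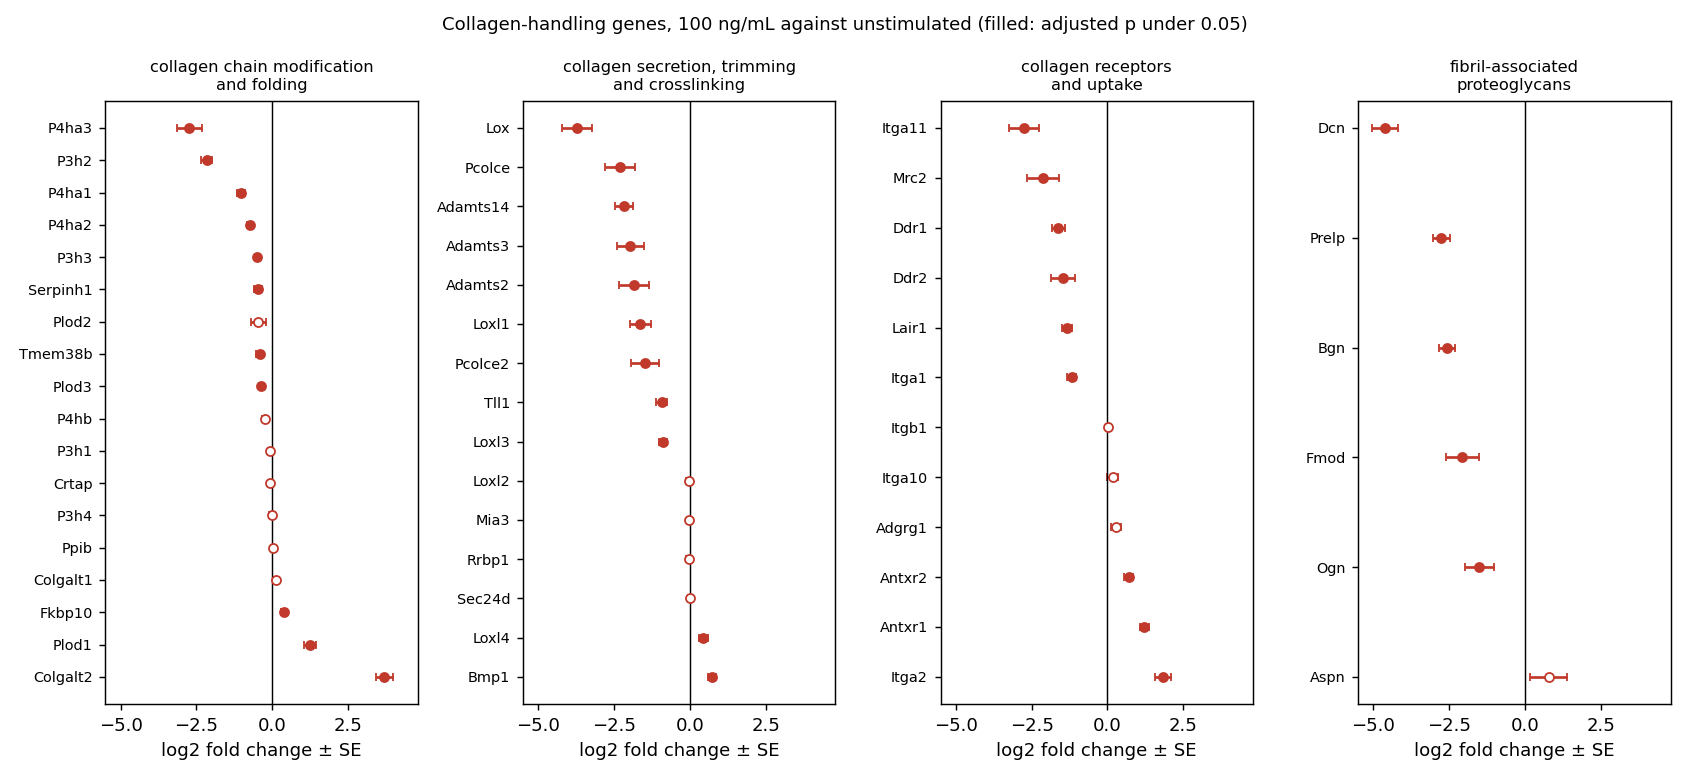
Log2 fold change ± SE (horizontal axis) at 100 ng/mL against unstimulated cells for tested genes that modify, secrete, crosslink or bind collagen. Filled symbols passed an adjusted p of 0.05. Lox and Dcn lie farthest to the left, at -3.72 and -4.62, and Colgalt2 farthest to the right, at 3.70.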

How the data were processed

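The authors deposited, per the file headers, an estimated count and an RPKM value per gene and library for 45706 genes. The deposited estimated counts were fractional in 64.3% of values. The deposited RPKM used library totals 1.86 to 1.92 times the sum of the counts, for an unstated reason. Bowtie2, limma and FastQC are named as tools, and mm10 and GRCm38 as builds, per the submitters' processing notes. Poly-A selected, stranded libraries were made, per the labels' protocols. How reads were counted, by strand or when matching several genes, was not stated in the labels or headers, so 13 chains whose exons overlap another gene in GENCODE M21 are uncertain by that much, among them Col3a1, Col4a1, Col4a2, Col5a1 and Col15a1. A second table of abundant genes was not used.

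Counts were rounded, filtered with filterByExpr, scaled by TMM and fitted with group as the term in all 15 libraries (edgeR 4.0.16, R 4.3.3), with Benjamini-Hochberg adjustment over 17650 genes and a threshold of 0.05. RPKM was rescaled by TMM, by factors of 0.961 to 1.018. Collagen chains were named in full, with values where mean CPM was at least 10, or at least 1 in a called chain, and library values for up to 4 per class by CPM and 3 by fold change. From each list of collagen-handling genes the 4 smallest p-values were named. Genes outside this rule (the markers named, the chains under 1 CPM, Col13a1, Col8a2) were named after their values were seen. The collagen chains, their classes and all gene lists were chosen with earlier results of these data known. Alternatives were DESeq2 1.42.0, other scalings and filters, limma 3.58.1 (voom and log2 RPKM), a replicate block and leaving out libraries.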

Additional observations from a re-analysis of the deposited data

Results flagged for a closer look

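Of 78 sets of 5 values (26 chains in 3 groups), 11 had a library set apart from the rest by more than Dixon's 95% critical value. Chance gives about 1 in 20 for independent sets, but these chains were read in the same libraries. The values were also not on a log scale, so the 11 cannot be set against that rate. All 11 were the highest of their group. Library B at 100 ng/mL was the one set apart for 6 chains, with 18.8 RPKM of Col5a2 (others 9.16 to 11.6), 0.606 of Col2a1 (others 0.0907 to 0.150), 25.7 of Col8a1 (others 1.81 to 7.45), 0.495 of Col11a1 (others 0.0864 to 0.137), 0.130 of Col24a1 (others 0.0206 to 0.0451) and 1.54 of Col16a1 (others 0.758 to 0.914). This library also stood between the other 100 ng/mL libraries and the unstimulated ones on the first principal component, and it had the most Acta2 of its group, 14.2 RPKM against 2.33 to 5.07. At 10 ng/mL, library C was set apart for Col23a1 at 9.39 RPKM (others 3.67 to 5.27), Col14a1 at 36.7 (others 12.2 to 15.2) and Col27a1 at 0.434 (others 0.215 to 0.254). Unstimulated library D was set apart for Col14a1 at 50.7 RPKM (others 17.7 to 20.1) and Col4a2 at 359 (others 298 to 316).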

How the results depend on the processing

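The number of chains called at 100 ng/mL against unstimulated cells was 27, and it was 18 to 29 under the alternatives, with 18 under the filter of 10 CPM in 5 libraries. Leaving out unstimulated library E together with D of 10 ng/mL and B of 100 ng/mL gave 28, a setting chosen after seeing the data. Against 10 ng/mL the count was 23, and 17 to 24 under the alternatives. At 10 ng/mL against unstimulated cells it was 0 in each of them. Leaving out 1 library at a time gave 26 to 29, 20 to 25 and 0 to 0 chains for these comparisons. Letters A to E did not pair the samples, since same-letter libraries correlated at -0.342 to 0.132 and every library correlated best with one of another letter. The 10 ng/mL libraries A, B, C, D and E correlated best with unstimulated B, C, D, E and A, at 0.562, 0.655, 0.675, 0.786 and 0.487, a hint from the data and not from the labels, and no fit was made on it. The replicate block gave 27, 20 and 0 chains. Among 671 values of 26 chains under the alternatives, 661 kept their direction and side of the threshold, 10 changed side and 0 reversed. Beside those given above, Col9a1 was lost on log2(RPKM + 1) and log2(RPKM + 0.1) (adjusted p = 0.0584 and 0.113) and Col4a1 on log2(RPKM + 1) (0.0523), and the cause was not tested. The pseudocount of 1 shrank low chains by construction, Col2a1 to a log2 fold change of -1.03 and Col11a1 to -0.85. Class sums as log2 ratios of 100 ng/mL to unstimulated ran from -2.24 to -1.88 (fibrillar), -0.09 to -0.01 (basement membrane) and -1.92 to -1.67 (other) without 1 library. The number of libraries limits precision for abundant chains, and counts limit it for chains under 1 CPM.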
